A study of Diplotaxodon limnothrissa and Petrotilapia genalutea and Rhamphochromis longiceps with 60 samples.

Results

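Liver-alone regions are stretches of DNA whose CG methylation differed between the livers of 3 Lake Malawi cichlid species and that overlap no stretch called between the muscles of the same species. They were taken from the deposited lists of differentially methylated regions (DMRs) by position: a region of the liver list was kept when it had no base in common with any region of the muscle list. Of 5787 liver regions, 3335 (57.6%) were liver-alone and 2452 overlapped a muscle region and are called shared here. The 4 deposited lists hold 50673 regions in all.

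The species were *Diplotaxodon limnothrissa* (DL), a deep-water fish of the open lake, *Petrotilapia genalutea* (PG), a rock-dwelling algae eater, and *Rhamphochromis longiceps* (RL), a fish-eater of the open water. All of these were wild-caught adult males, and whole tissue was homogenised, so that the cell types of an organ were measured together. By the names of the methylation tracks in the labels, 3 DL, 3 PG and 2 RL fish gave liver, and 2 fish of each of these species gave muscle. The labels list 3 RL liver methylomes, but the name of the RL liver track gives 2. By the numbers in the sample titles, each muscle came from a fish with a liver sample in the labels, so the tissues are not independent sets of fish. Each DL and PG muscle is listed in 2 runs, while titles of RL muscles and of the livers of these 3 species name no run. The other lists hold 27165 regions between liver and muscle within these species and 13331 regions between the livers of 6 species, which add *Maylandia zebra* (MZ, 3 livers), *Aulonocara stuartgranti* (2) and *Astatotilapia calliptera* (2).

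In vertebrates most CG sites carry a methyl group, whereas the promoters of many active genes do not, and methylation of a promoter often goes with silence of its gene. DNA methyltransferases write the mark and copy it at cell division, and TET enzymes start its removal. Each tissue has its own pattern of methylation, and species also differ in methylation at positions where the tissues of a fish resemble each other. The question behind the comparison of both lists was how much of the difference between species is seen in a single tissue.

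The lists give positions alone, with no methylation level, direction, pair of species or number of CG sites. A liver-alone region is therefore one that was called in liver and not called in muscle at that position, and a call in 1 tissue without the other does not show that the tissues differ there. The difference between the tissues was not tested. More livers (8) than muscles (6) entered the tracks. The sample sheet of the study also lists fewer reads kept after mapping for every muscle than for every liver of these species, and depth was not used in the analysis here. How far this moved regions into the liver-alone class cannot be told apart from tissue here. The lists were called once, so counts and shares have no replicate error, and the 95% Wilson intervals below cover counting error only.

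Liver-alone regions were short. Their median length was 216 bp, with an interval of 207 to 222 bp from the ranks of the lengths, against 518 bp (497 to 542 bp) for shared regions. The middle 50% of liver-alone regions ran from 105 to 369 bp, and that of shared regions from 297 to 862 bp. Both classes reached down to 50 bp, the shortest length that the study's calling rule allowed. Their longest members measured 5230 bp and 6223 bp. Of the liver-alone regions 23.1% were under 100 bp, against 3.87% of the shared ones, and 2.88% reached 1000 bp, against 19.6%. Because of this difference in length, the 3335 liver-alone regions held 0.979 Mb of DNA and the 2452 shared regions 1.69 Mb.

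**Figure D1:**
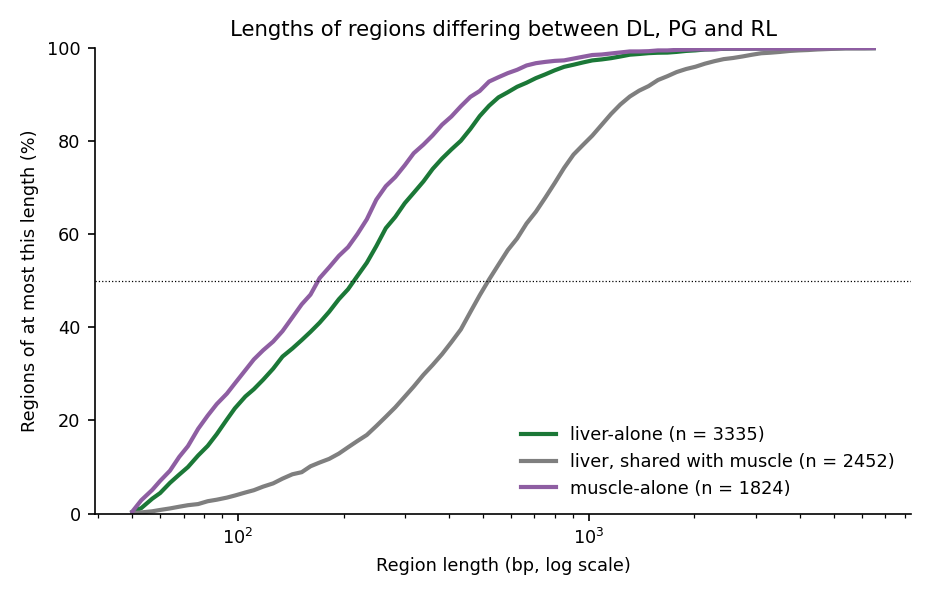
Cumulative share of regions (vertical axis, percent) by region length (horizontal axis, bp, log scale) for liver-alone, shared and muscle-alone regions, with a dotted line at 50%. The curve of the 3335 liver-alone regions crosses that line at 216 bp and lies close to that of the 1824 muscle-alone regions, which crosses it at 169 bp, while the 2452 shared regions cross it at 518 bp.

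Muscle regions that overlap no liver region were shorter still. These 1824 muscle-alone regions had a median of 169 bp (162 to 180 bp) and 28.8% of them were under 100 bp. A longer region has more bases with which to meet another, so the rule itself favours short regions among those called in 1 tissue, and no test was made of the lengths.

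The share of liver regions that were liver-alone fell at each step of length. It was 89.0% (770 of 865, interval 86.8 to 90.9%) at 50 to 99 bp, 77.1% at 100 to 199 bp and 69.8% at 200 to 299 bp. It was then 53.8% at 300 to 499 bp, 31.1% at 500 to 999 bp and 16.7% (96 of 576, interval 13.8 to 19.9%) at 1000 bp and above. The class thus held most of the short liver regions and few of the long ones.

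**Figure D2:**
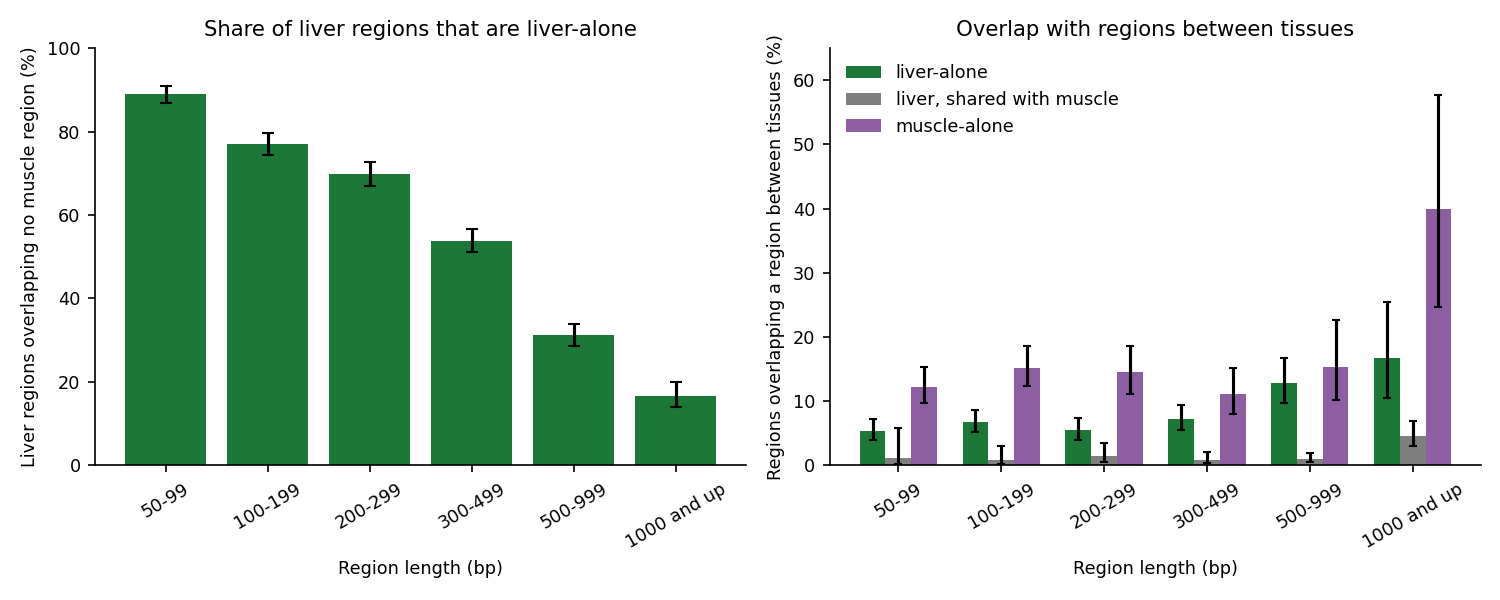
Left, share of liver regions that overlap no muscle region (percent) in 6 classes of length (bp). Right, share of liver-alone, shared and muscle-alone regions that overlap a region between liver and muscle (percent) in the same classes. Bars start at 0 and error bars are 95% Wilson intervals of counting error. The left bars fall from 89.0% to 16.7%, and on the right the liver-alone bars lie between the shared and the muscle-alone bars in every class.

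The 5 longest liver-alone regions show how different the neighbourhoods of members were. The longest, 5230 bp, ran from 122 to 5351 on the unplaced sequence NW_020193294.1, on which no muscle region lies. The next, 3717 bp from 121646 to 125362 on NW_020192736.1, also lay on a sequence without a muscle region. The third, 3130 bp from 7645326 to 7648455 on NC_036798.1, was 129.5 kb from the nearest muscle region and was the only one of the 5 to overlap regions between tissues. The fourth measured 2793 bp, from 74997 to 77789 on NW_020192376.1, with a muscle region 36.05 kb away. The fifth measured 2447 bp, from 14464901 to 14467347 on NC_036780.1, with a muscle region 116.6 kb away. All positions are on the *M. zebra* UMD2a assembly and are counted from 1. Genes, exons and repeats at these positions were not analysed here.

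Most liver-alone regions had no muscle region within 10 kb. The gaps below were not compared with those of regions placed at random along the sequences. On sequences without a muscle region lay 375 of them (11.2%), and for the other 2960 the median gap to the nearest muscle region was 46.8 kb, with a middle 50% from 11.3 to 135 kb. A muscle region lay within 1 kb of 251 liver-alone regions (7.53%) and within 10 kb of 700 (21.0%). Among the 512 with a muscle region within 5 kb, the nearest was a muscle-alone region for 202 (39.5%). For the other 310 it was a muscle region that overlaps another liver region. Of all 4390 muscle regions, 1824 were muscle-alone and 2566 overlapped a liver region, so the split was close to that of the whole list.

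Few regions sat at the edge of the rule. Just inside it, 18 liver-alone regions lay within 50 bp of a muscle region, with a median length of 248 bp, and 4 of these touched one without an overlap. Just outside it, 49 shared regions had at most 50 bp in common with muscle regions, with a median length of 209 bp, and 19 of these had 1 bp in common. Shared regions were mostly covered by muscle regions, with a median cover of 83.0%. Of the 2452, 818 (33.4%) were covered from end to end and 541 (22.1%) to less than 50%.

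The assembly has 22 sequences placed on chromosomes and many small unplaced ones. On unplaced sequences lay 955 liver-alone regions (28.6%), against 19.4% of shared regions, 27.1% of muscle-alone regions and 10.2% of the regions between tissues. The liver-alone regions reached 579 sequences and the shared regions 319. The 955 were thinly spread over 557 unplaced sequences, of which 354 held 1 liver-alone region each, 106 held 2 and 97 held at least 3. The highest number was 14, on NW_020192319.1. Unplaced members were shorter than placed ones, with medians of 179 and 231 bp, and the same order was seen in shared regions (458 and 536 bp).

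On the placed sequences, liver-alone regions were spread over every chromosome. Their number per chromosome ran from 68 on NC_036788.1 to 201 on NC_036782.1. Taking the end of the last listed region as the length of a sequence, 21 of the 22 held between 2.18 and 3.73 liver-alone regions per Mb. NC_036782.1 stood apart with 5.39 per Mb. It also held 3.06 shared regions per Mb, within the range of 1.75 to 3.19 on the other 21, and 5.63 muscle regions per Mb, just above their range of 3.13 to 5.30. Regions between tissues went the other way there, with 21.7 per Mb on NC_036782.1 against 28.8 to 38.6 on the others. Liver-alone regions made up 63.8% of the liver regions of NC_036782.1, and between 46.9 and 63.5% of those of the others. The base composition, CG density and repeats of NC_036782.1 were not analysed here.

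**Figure D3:**
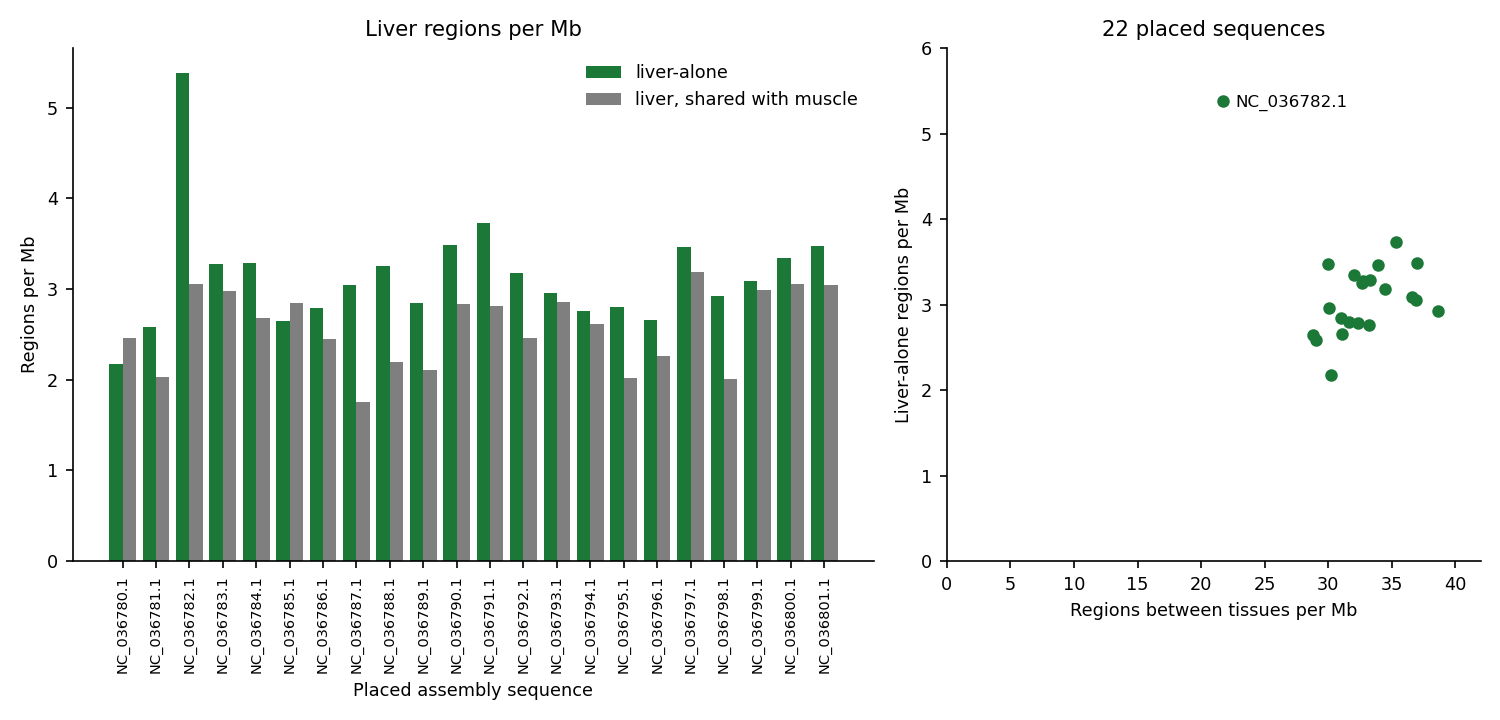
Left, liver-alone and shared regions per Mb on each of the 22 placed sequences, in bars that start at 0. Right, liver-alone regions per Mb against regions between tissues per Mb, 1 point per placed sequence. NC_036782.1 has the highest density of liver-alone regions (5.39 per Mb) and the lowest density of regions between tissues (21.7 per Mb), and the other 21 sequences form 1 group between 2.18 and 3.73 liver-alone regions per Mb.

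The excess on NC_036782.1 lay largely in its first 13 Mb, a border set after the counts were seen. That stretch held 106 liver-alone regions (8.15 per Mb) and the remaining 24.3 Mb held 95 (3.91 per Mb). The density of the rest was still above the 2.18 to 3.73 per Mb of the other 21 whole sequences. Regions between tissues were sparse in the same stretch, at 10.8 per Mb against 27.6 per Mb in the rest. Shared regions were also denser there, with 53 (4.08 per Mb) in the stretch and 61 (2.51 per Mb) in the rest. Stretches of 13 Mb on the other 21 sequences were not counted, so no range for such a stretch is given. Muscle regions numbered 93 in the 13 Mb of the stretch and 117 in the 24.3 Mb of the rest. Within NC_036782.1, the higher density of the stretch was therefore seen in shared regions as well as in liver-alone regions.

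In windows of 1 Mb along the placed sequences, the median was 3 liver-alone regions per window. Of 770 windows, 693 (90.0%) held at least 1, against 651 (84.5%) with a shared region and 767 with a region between tissues. The variance of the count was 2.04 times its mean, and 1.81 times without NC_036782.1. At least 10 liver-alone regions fell in 23 windows, 6 of them on NC_036782.1. The richest window, from 12000001 to 13000000 on NC_036782.1, held 21 liver-alone and 10 shared regions, 17 muscle regions and 13 regions between tissues. Next came 16 liver-alone regions in each of 2 windows. That from 6000001 to 7000000 on NC_036782.1 also held 6 muscle regions and 6 between tissues, and that from 10000001 to 11000000 on NC_036801.1 held 9 and 43.

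Along the chromosomes, liver-alone regions were most numerous towards the far end. When each placed sequence was divided into 10 equal sections, from its first base to the last listed region, the last section held 319 of the 2380 placed members (13.4%), and each of the other sections held between 195 and 279 (8.19 to 11.7%). The last section also held 14.6% of the shared regions and 13.4% of all muscle regions, but 8.17% of the regions between tissues, the lowest share of that list in any section. The high end was therefore seen in both classes of liver regions.

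Groups of neighbouring liver-alone regions were small, and most members had no other within 5 kb. These gaps were not compared with those of regions placed at random, so how far members cluster was not tested. Another liver-alone region lay within 5 kb of 522 members (15.7%), against 16.5% of shared regions with another shared region within that reach. At 0.1 kb the shares were 2.37% (79 regions) and 1.06%, with liver-alone regions the higher. At 1 kb the shares were 8.996% and 9.747%, at 20 kb 27.6% and 29.0%, and at 100 kb 55.9% and 54.0%. The median gap to the next member of the same class was 56.6 kb for the 2981 liver-alone regions with another on their sequence, and 63.9 kb for 2244 shared regions. When any liver region counted as a neighbour, the share within 5 kb was 23.4% for liver-alone regions and 27.0% for shared ones. The smallest gap between 2 liver-alone regions was 51 bp, and that between 2 shared regions was 6 bp.

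**Figure D4:**
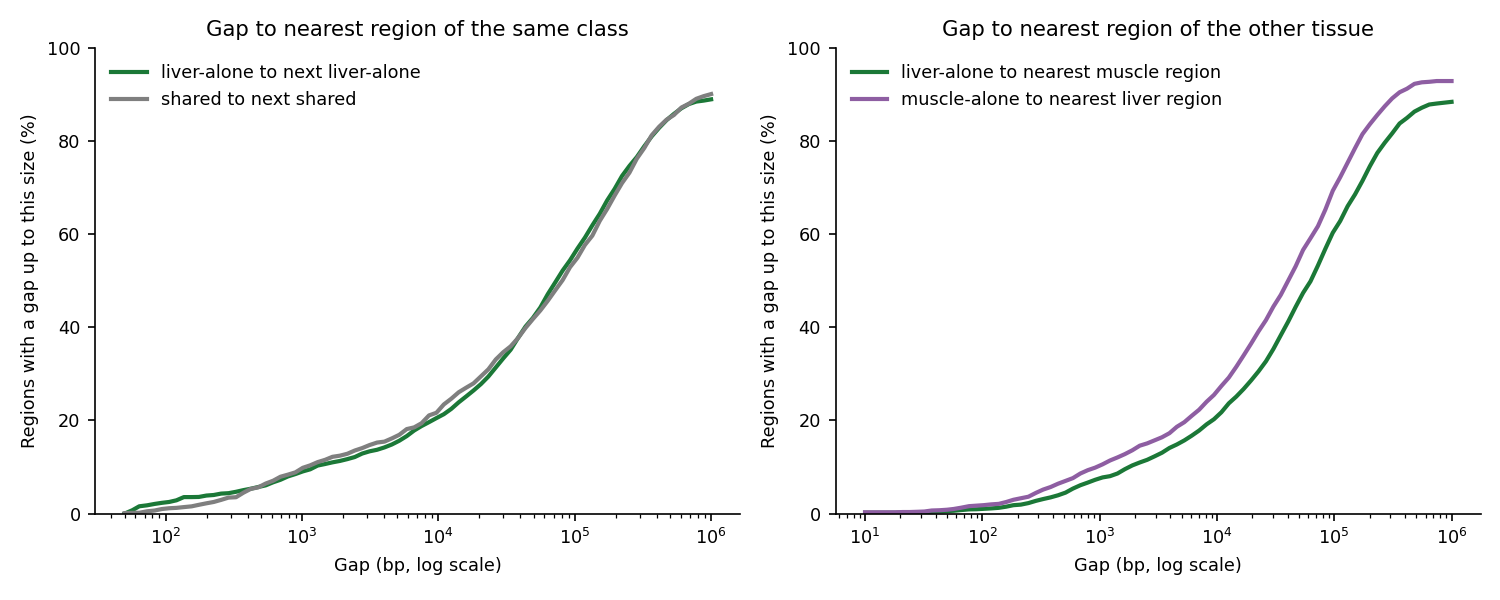
Cumulative share of regions (percent) by gap (bp, log scale). Left, from a liver-alone region to the next liver-alone region and from a shared region to the next shared region; right, from a liver-alone region to the nearest muscle region and from a muscle-alone region to the nearest liver region. On the left the curves are at 2.37% and 1.06% within 0.1 kb and at 15.7% and 16.5% within 5 kb, and on the right 7.53% of the liver-alone regions have a muscle region within 1 kb.

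Chaining members whose gaps are at most 5 kb gave 243 groups. Of these 215 were pairs, 22 held 3 regions, 4 held 4 and 2 held 5, and the other 2813 liver-alone regions stood alone. The first group of 5, from 17703038 to 17715260 on NC_036798.1, had members of 215, 99, 98, 285 and 202 bp in a span of 12.2 kb, with no shared, muscle or between-tissue region inside it. The second, from 10076160 to 10083715 on NC_036801.1, had members of 115, 245, 189, 119 and 203 bp in 7.56 kb, together with 1 shared liver region, 1 muscle region and 1 region between tissues. Among the groups of 4, the first in order of sequence and position ran from 21998325 to 22001255 on NC_036781.1. Its members of 53, 296, 307 and 1086 bp filled 1742 bp of a span of 2.93 kb, and the nearest muscle region was 68.5 kb away. No member of these 3 groups overlapped a region between tissues.

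Most liver-alone regions were not among the regions that differ between liver and muscle within a species. Of the 3335, 239 (7.17%, interval 6.34 to 8.09%) overlapped a region between tissues, and 3096 (92.8%) overlapped none. Shared regions did so in 42 cases of 2452 (1.71%, interval 1.27 to 2.31%) and muscle-alone regions in 254 of 1824 (13.9%, interval 12.4 to 15.6%). Over all 5787 liver regions the share was 4.86% (281), and over all 4390 muscle regions 6.56% (288). The regions between tissues held 8.75 Mb in all, and the overlap of regions placed at random with them was not computed. By bases, 5.30% of the liver-alone DNA lay in regions between tissues, against 0.432% of the shared DNA and 13.3% of the muscle-alone DNA. The lists were called from the same methylomes, so the overlaps are not independent of the rule, and they are given without a test.

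The order of the classes was the same at each length. Liver-alone regions overlapped a region between tissues in 5.32% of cases at 50 to 99 bp, 6.69% at 100 to 199 bp, 5.44% at 200 to 299 bp, 7.15% at 300 to 499 bp, 12.8% at 500 to 999 bp and 16.7% (16 of 96) from 1000 bp. Shared regions stayed between 0.851 and 1.40% up to 999 bp and had 4.58% (22 of 480) from 1000 bp. Muscle-alone regions lay between 11.04 and 15.38% up to 999 bp and reached 40.0% (12 of 30) from 1000 bp. Regions are not replicates and the classes come from the rule itself, so the intervals here describe counting error and decide no difference. Intervals of liver-alone and shared regions overlapped under 100 bp, where the shared one (1 of 95) was 0.186 to 5.72% and the liver-alone one 3.95 to 7.14%. Intervals of liver-alone and muscle-alone regions overlapped at 300 to 499 bp (5.42 to 9.38% and 7.97 to 15.1%), at 500 to 999 bp (9.77 to 16.7% and 10.2 to 22.6%) and from 1000 bp (10.5 to 25.4% and 24.6 to 57.7%).

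The 239 regions with such an overlap were a little longer than the rest, with a median of 274 bp against 212.5 bp. The median stretch in common was 159 bp, and a median of 81.9% of the liver-alone region was covered. In 90 cases (37.7%) the liver-alone region lay wholly inside regions between tissues. Borders often coincided to the base: 84 had a start and 78 an end in common with a region between tissues, 125 (52.3%) had at least 1 of these, and 37 had the same region in both lists. No liver-alone region met more than 2 regions between tissues, and 7 met 2. Seen from the other list, 242 of the 27165 regions between tissues (0.891%) met a liver-alone region.

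These 239 regions lay on 75 sequences, 185 on placed and 54 on unplaced ones. The share with an overlap was 7.77% on placed and 5.65% on unplaced sequences. By chromosome it ran from 3.48% (7 of 201) on NC_036782.1, where regions between tissues were sparsest, to 15.1% (18 of 119) on NC_036784.1. With overlaps counted as 0, the median gap to the nearest region between tissues was 15.1 kb for the 2989 liver-alone regions with such a region on their sequence, against 18.0 kb for shared regions.

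The longest overlap, 1877 bp, belonged to the 3130 bp region on NC_036798.1, which met 2 regions between tissues and was covered to 60.0%. The second, 1211 bp, was in the region from 34632831 to 34634503 on NC_036796.1 (1673 bp), which met a region between tissues from 34633293 to 34634857 and had a muscle region 348 bp away. The third, 911 bp, was in the region from 16614050 to 16615487 on NC_036798.1 (1438 bp). There a region between tissues from 16614576 to 16615486 lay wholly inside the liver-alone region, and the nearest muscle region was 33.6 kb away.

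Every liver-alone region lay inside a liver region of the 6-species list. The livers of that list include those of DL, PG and RL, so this containment is no independent result. In 2014 cases (60.4%) start and end were the same in both lists, against 52.8% of the shared regions. In the other 1321, the 6-species region was longer by a median of 186 bp and by 74 to 445 bp in the middle 50%. The 3335 liver-alone regions fell into 3286 regions of the 6-species list, 46 of which held at least 2 and none more than 4. Where MZ, *A. stuartgranti* and *A. calliptera* were added, the longer region met a muscle region in 93 of these 1321 cases (7.04%).

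A gene at which the study places a DMR between species is *prf1*-like (LOC101465185 in the expression tables), which encodes a perforin-like protein. In mammals perforin is the pore-forming protein of cytotoxic lymphocytes. The study sets a DMR at the promoter of this gene on NC_036785.1 and reports high methylation there in the liver of DL alone. Methylation levels were not measured here. The study also describes the gene as not expressed in DL livers. In the part of that sequence it shows, 2 liver-alone regions are listed, from 1804441 to 1804817 (377 bp) and from 1806131 to 1806208 (78 bp), 1.31 kb apart. Their link to the gene was made here only because they lie in that stretch, and is not a statement of the study. The position of the gene itself was not used. The shorter one lies wholly inside a region between tissues from 1806131 to 1806271, has the same start, and lies inside a 6-species region from 1805691 to 1806271. The longer one meets no region between tissues and has the same borders in the 6-species list. The nearest muscle region was 31.6 kb from the longer and 33.3 kb from the shorter region. Which of them is the promoter region, and their distance from the start of the gene, were not analysed here.

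Expression was measured by RNA-seq in the same tissues and is given in TPM, a measure of transcript abundance that allows for transcript length and is scaled to the same total in each library. In DL livers *prf1*-like had 0.897, 0.881 and 11.2 TPM. In PG livers it had 3091, 2433 and 3953 TPM, and in RL livers 669.9 and 882.6 TPM. The labels list 3 RL liver RNA libraries, but TPM values are given for 2. MZ livers, which are not part of this liver list, had 1168, 2645 and 2459 TPM. Every DL liver thus lay below every liver of the other species with a TPM value, and the highest DL liver was well apart from the other DL livers. DL livers averaged 4.33 ± 5.96 TPM over 3 fish, PG livers 3159 ± 762 TPM over 3 fish and RL livers 776 ± 150 TPM over 2 fish, with SD as the error. The mean of DL was 0.00137 times that of PG and 0.00558 times that of RL. These ratios rest on DL replicate 3, the liver at 11.2 TPM, without which the DL mean was 0.889 TPM and the ratios were 0.000281 and 0.00115.

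A level of 1 TPM or more in 2 or more livers was reached by 16613 genes, and 296 of them (1.78%) had every DL liver below every PG and every RL liver. With the MZ livers included, as in *prf1*-like, 142 genes (0.855%) did so. The study named *prf1*-like for its expression and methylation in these fish, so its levels are a description, without a test. In PG livers it ranked between 35 and 60 among the 29676 genes of the table, and in RL livers between 130 and 147, whereas in DL livers its rank lay between 4211 and 14030.

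In muscle the gene was near 0 TPM in every species. The highest of the 12 muscles was an MZ muscle at 0.789 TPM. DL muscles had 0.391, 0.191 and 0.508 TPM, PG muscles 0.311, 0.628 and 0 TPM, and RL muscles 0.356, 0.134 and 0.510 TPM. The ranges of these 3 species overlapped, so the order of species seen in liver was not seen in muscle at these levels.

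**Figure D5:**
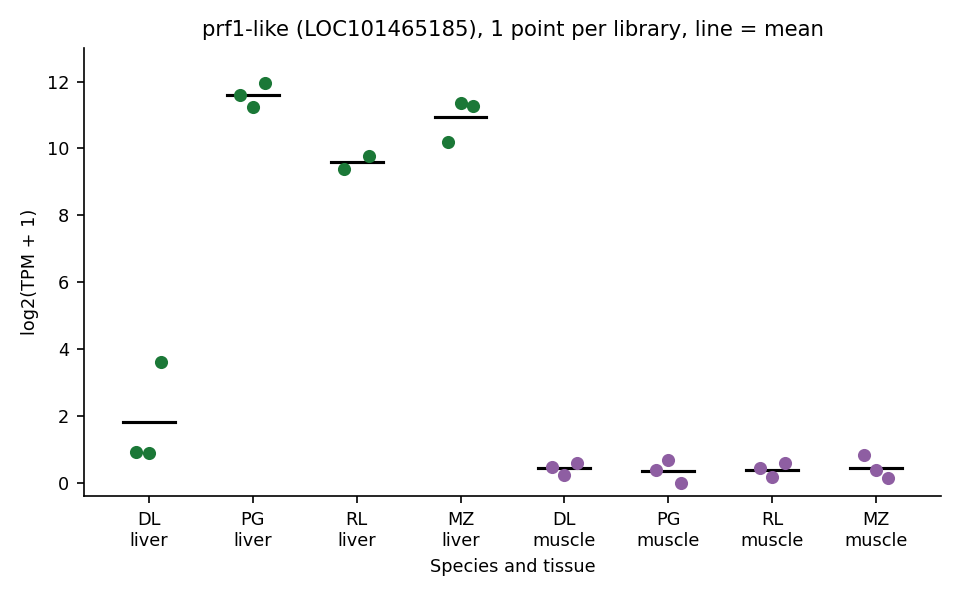
Expression of *prf1*-like on the log2(TPM + 1) scale (vertical axis) in livers and muscles of DL, PG, RL and MZ (horizontal axis), 1 point per library with the mean as a line. The 3 DL livers lie at or below 11.2 TPM and all other livers at or above 669.9 TPM, while all 12 muscles lie at or below 0.789 TPM.

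The tissues carried the markers of their labels where these could be matched by symbol. The liver genes *fgb*, *fgg* and *tf*, 3 of a list of 24, encode fibrinogen chains and transferrin. They summed to between 9497 and 31630 TPM in the 11 livers and to between 3.16 and 18.5 TPM in the 12 muscles. By species, these sums were 21800 to 26610 TPM in DL, 27370 to 31630 TPM in PG and 9497 to 15150 TPM in RL livers. Those ranges did not overlap, and MZ livers had 12780 to 20190 TPM. Muscle myosin light chain *myl1*, 1 of 20, lay between 1.31 and 77.9 TPM in livers and between 4163 and 26730 TPM in muscles. Its highest liver value was in a DL liver, while PG, RL and MZ livers reached 4.76, 11.7 and 2.63 TPM. Pancreas lies within or against the liver of many fish, and its enzymes *cpb1* and *pla2g1b* (2 of 19) summed to 211 to 300.5 TPM in DL livers, 38.8 to 155 TPM in PG livers, 238 to 649.5 TPM in RL livers and 11.9 to 526 TPM in MZ livers, against at most 1.38 TPM in muscles. The leukocyte genes *ptprc* and *lcp1* (2 of 11) summed to 3.55 to 9.20 TPM in DL livers, 14.0 to 24.6 TPM in PG livers, 2.88 to 3.17 TPM in RL livers and 9.94 to 33.9 TPM in MZ livers, and to between 3.09 and 36.1 TPM in muscles. These leukocyte sums were higher in every PG and MZ liver, and lower in both RL livers, than in every DL liver. The red blood cell gene *rhag* (1 of 10) had 5.997 to 7.57 TPM in DL livers, 0.189 to 3.10 TPM in PG livers, 4.82 to 12.1 TPM in RL livers and 0.0800 to 0.393 TPM in MZ livers, and reached 18.7 TPM in muscles. It was thus higher in every DL liver than in every PG and MZ liver. The fat cell gene *cidec* (1 of 8) had 37.3 to 53.0 TPM in DL livers, 48.9 to 183 TPM in PG livers, 13.2 to 66.4 TPM in RL livers and 22.9 to 59.6 TPM in MZ livers, and reached 1.31 TPM in muscles. In whole tissue, fewer cells of a type and less RNA per cell cannot be told apart, and the part of cell composition in the expression of *prf1*-like or in the calling of liver-alone regions was not tested.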

How the data were processed

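Whole-genome bisulfite sequencing reads were mapped by the authors with Bismark to versions of the *M. zebra* UMD2a genome. In these versions the C to T (or G to A) single-base variants of a species had been substituted. DMRs were called with DSS from groups of methylomes, with minimums for length, number of CG sites and methylation difference. The deposited lists give a sequence, a start, an end and a class (positions in bp), with starts read as counted from 0. For RNA-seq the authors trimmed reads with Trim Galore, assigned them to transcripts with kallisto and deposited TPM values per gene and library, with no read counts per gene, so no interval was given for a TPM. The read totals that the study lists were not used here. The deposited means per species were not used.

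Regions overlapped when they had at least 1 bp in common. Groups were chained at 5 kb. Intervals were Wilson's for shares and binomial for medians, both at 95%, and cover counting error only. No test was made, since a list has no replicate and regions are not replicates. Overlap, gap and neighbour functions were tested on simulated regions. Python 3.11.15 with pandas 2.3.3, numpy 2.4.6, scipy 1.17.1 and matplotlib 3.10.9 was used.

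The regions named are the 5 longest, the 3 largest groups (ties by sequence and position) and the 3 with the longest overlap with regions between tissues. The members, lists and rules were chosen with earlier results of these data known. No annotation or genome of UMD2a was used here, so genes, exons and sequences at the regions are not given. For the same reason the fixed lists of cytochrome P450, liver transcription factor, lipid, glucose, complement and coagulation, muscle, homeobox, methylation and clock genes were not used. Alternatives were another rule for overlap or reach, placed sequences alone and a minimum length of 100 bp.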

Additional observations from a re-analysis of the deposited data

How the results depend on the processing

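The number of liver-alone regions stayed within 1.5 times of 3335 in the 6 alternatives tried, from 2380 on placed sequences to 3876 when muscle regions had to cover at least 50% of a liver region to make it shared. It was 3331 when touching regions counted as shared, and 3134 without NC_036782.1. Placed sequences alone and leaving out NC_036782.1 only take members out, so their lower counts follow from the setting. Counting touching regions, or muscle regions within 1 kb, as shared can likewise only lower the number. The cover of 50% can only raise it. The direction of these changes was thus fixed by the settings, and they are no independent check of the number. The share of liver regions that were liver-alone was 57.6% in the whole list and 54.6% on placed sequences. The share with an overlap with a region between tissues, 7.17%, was 5.10% when at least 50% had to be covered. It was 10.2% when a region within 1 kb counted, and lay between 6.76 and 7.77% in the other 4. The stricter rule can only lower this share and the looser rule can only raise it, so both changes follow from the settings. The median length of 216 bp moved to 231 bp on placed sequences and to 245 bp with the cover of 50%. The share with another member within 5 kb, 15.7%, was 8.996% at 1 kb, 27.6% at 20 kb and 23.4% with any liver region as neighbour. The alternatives that touch regions, leave out NC_036782.1, or apply the cover and the minimum length to the share with an overlap were chosen after the data were seen, as were the 1 kb rule for the median and placed sequences for the spacing. No paired analysis was possible because the results come from lists of positions and from no test. The planned fits of expression at promoters, with their pseudocounts, filters, left-out libraries, fish as a block and wider promoters, were not run because genes could not be placed at the regions. Fewer muscles than livers entered the lists, and the effect of this on the number of muscle regions was not tested.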
